A study of Mus musculus with 2 samples.

Results

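Interferon-stimulated genes are genes that cells switch on when an interferon binds its receptor. Their levels were followed here across the cells of the mouse embryonic heart through 9 members taken by symbol from the 32285 genes of the files: Isg15, Ifit1, Ifit3, Irf7, Oasl2, Rtp4, Ifi44, Bst2 and Ifitm3. Interferon receptors at the cell surface activate the kinases Jak1 and Tyk2. A transcription factor complex that contains Irf9 then enters the nucleus and binds a short DNA element in the promoters of such genes. Many of the products hold back viruses, and several are also present at a low level without infection, which is known as tonic signalling.

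The measurement was single-cell RNA sequencing (10x Chromium 3' v3.1) of hearts at stage E10.5, that is, of midgestation embryos. The knockout library came from BubR1fl/fl; Nkx2.5-cre hearts and the wildtype library from BubR1+/+; Nkx2.5-cre hearts, and both carried 1 copy of the Cre. For each library 4 hearts were pooled, embryos waited 3 hours on ice during genotyping, and tissue was dissociated with TrypLE. The Nkx2.5 promoter drives Cre in early heart progenitors, and the floxed gene is Bub1b, which encodes the spindle checkpoint protein BubR1. Each genotype had 1 library, so no replicate check could be made and no test was run. Ranges in square brackets are 95% intervals. They cover counting error only and do not include the spread between hearts.

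The knockout library gave 5966 cells with a median of 17042.5 UMIs (unique molecular identifiers, 1 per captured RNA molecule), and the wildtype library gave 7440 cells with a median of 9504.5. A cell here was a barcode with at least 3000 UMIs, at least 500 genes and at most 20% mitochondrial UMIs. Levels are in CPM, a gene's UMIs scaled to the UMI total of the summed cells (the usual counts-per-million scale), and ratios are log2 ratios of the knockout library to the wildtype library. In cardiomyocytes Bub1b itself stood at 29.3 CPM in the knockout library and 55.0 CPM in the wildtype library, a log2 ratio of -0.91 [-1.10, -0.72]. It was level in mesenchymal cells (0.07 [-0.12, 0.26]) and higher in the knockout library in endothelial/endocardial (0.46 [0.21, 0.70]), epicardial (0.76 [0.53, 0.99]) and erythroid cells (2.97 [2.48, 3.50]). Over all cells Bub1b stood at 40.8 CPM in the knockout library and 32.4 CPM in the wildtype library, and it was lower in knockout macrophages (-1.38 [-2.01, -0.81]). Which exons the floxed allele loses was not stated, and 3' reads outside them would not check the labels.

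The libraries also stood apart in ways the genotype labels do not name, and these values move with every ratio below. Hmga2, which is high in early embryonic tissue and declines with development, was at 416 CPM in the knockout library and 134 CPM in the wildtype library over all cells. The adult globin Hbb-bs was at 287 against 23481 CPM, and the embryonic globin Hbb-bh1 at 8872 against 886 CPM. The X-inactivation RNA Xist was at 529 against 228 CPM, and the Y-linked gene Ddx3y at 0.28 against 23.6 CPM. Genotype, developmental stage, sex of the pooled embryos and library preparation therefore cannot be told apart. The same barcode occurred in both libraries for 8 kept cells.

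Cells were assigned to a class when at least 4 of its 8 markers stood above free RNA, with a lead of 2 over any other class. The knockout library gave 617 cardiomyocytes, 530 endothelial/endocardial, 411 mesenchymal, 1843 epicardial, 1129 erythroid and 41 macrophage cells. The wildtype library gave 718 cardiomyocytes, 1044 endothelial/endocardial, 1510 mesenchymal, 660 epicardial, 672 erythroid and 258 macrophage cells. In both libraries at least 3 of 4 further markers of each class were at least 2-fold above the rest, except in knockout mesenchymal cells, where 2 of 4 were. There Dcn stood at 49.1 CPM against 239 CPM in the other classes, and Lum at 20.9 against 15.3 CPM. The gate marker Col1a2 was no higher than elsewhere, at 238 against 249 CPM. The gate markers Prrx1 and Twist1 were well above, at 87.7 against 1.38 and 596 against 21.1 CPM. A further 511 knockout and 462 wildtype cells had markers of 2 classes, and 680 knockout and 2070 wildtype cells had no class. These stayed in the counts over all cells.

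The promoters are shown first because interferon is known to act through a short element found in many such promoters. RefSeq promoters of 300 bases (250 before the start and 50 after it, GRCm38.p6) were found for 8 of the 9 members; Rtp4 was not in that table. The interferon-stimulated response element was searched on both strands as GAAA followed by any 2 bases and a further GAAA. It was present in 5 of these 8 members, beside 3.99% of the 27025 genes with a promoter (3.45% of all 32544 promoters). The stretches that hold it are printed 5′ to 3′ on the gene's strand, with the matched bases in capitals.
Isg15, chr4:156200863-156200908, minus strand: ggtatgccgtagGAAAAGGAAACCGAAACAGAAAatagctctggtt
Ifit1, chr19:34640773-34640825, plus strand: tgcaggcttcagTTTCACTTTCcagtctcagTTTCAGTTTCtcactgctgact
Ifit3, chr19:34583361-34583428, plus strand: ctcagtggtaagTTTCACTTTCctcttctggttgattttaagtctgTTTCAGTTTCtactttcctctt
Bst2, chr8:71537575-71537614, minus strand: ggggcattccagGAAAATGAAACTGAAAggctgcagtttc
Ifitm3, chr7:141010715-141010743, minus strand: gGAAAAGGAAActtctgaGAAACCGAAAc

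Isg15 held 3 overlapping matches and the other 4 genes held 2 each. In Ifit1 and Ifit3 the matches read on the opposite strand, so they appear as the reverse complement. The matches of Isg15, Ifit1, Ifit3 and Bst2 lay before the start site, whereas those of Ifitm3 lay between 2 and 28 bases after it. The gamma-activated site, an element through which interferon gamma acts, was searched as TTCNNNGAA on both strands. It was found in Bst2 and Ifitm3, where it overlapped the first element, beside 9.55% of genes with a promoter (8.33% of all promoters). No match of either motif was found in the windows of Irf7, Oasl2 and Ifi44. Of 42 other interferon-stimulated genes in the promoter table, 19 held the response element and 8 the gamma-activated site. A match describes the letters and does not show binding.

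Over all cells, each of the 9 members was lower in the knockout library. The 7 members other than Bst2 and Ifitm3 were rare transcripts and together gave 377 UMIs in the knockout library and 2038 in the wildtype library, or 3.40 against 25.7 CPM (log2 ratio -2.92 [-3.08, -2.76]). Their single log2 ratios ran from -2.68 for Rtp4 to -4.54 for Ifi44. Bst2 and Ifitm3 were more abundant. Bst2 stood at 15.0 against 50.4 CPM (-1.75 [-1.83, -1.66]) and Ifitm3 at 13.9 against 62.8 CPM (-2.18 [-2.26, -2.09]). In a pool of cells, fewer cells of a high-expressing class and a lower level within a class both lower such a value, so the classes were taken apart.

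**Figure D1:**
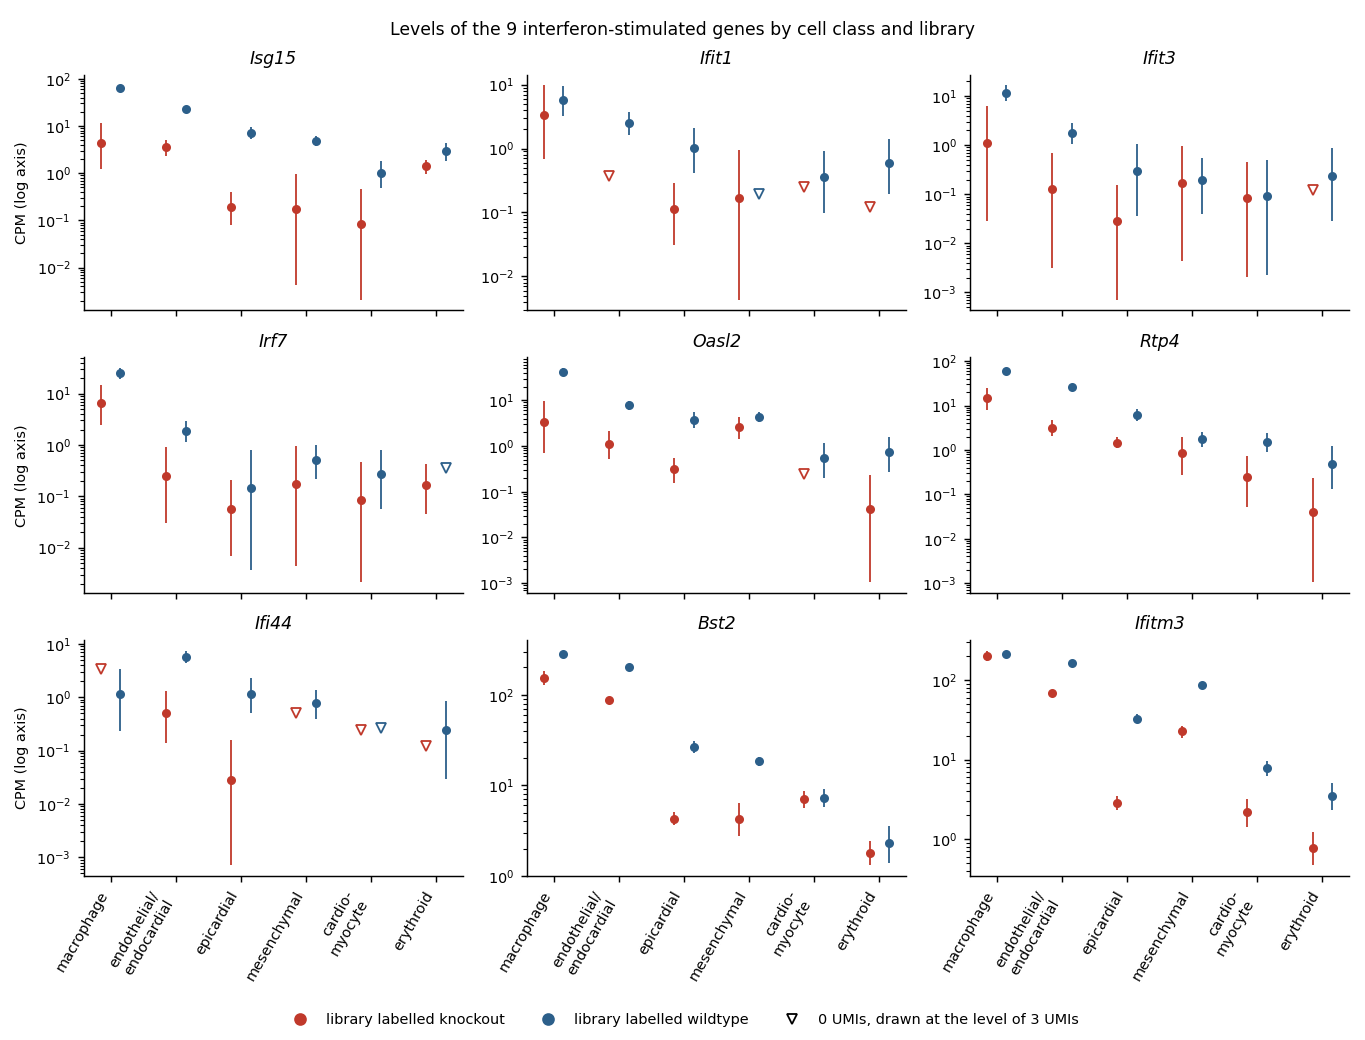
Level of each member (CPM, log axis) in 6 cell classes, with the library labelled knockout left of the library labelled wildtype; points are sums over the cells of a class, bars are 95% Poisson intervals for counting error, and open triangles mark 0 UMIs, drawn at the level of 3 UMIs. Wildtype macrophages and endothelial/endocardial cells stand at the top for most members, and Bst2 in cardiomyocytes (7.06 against 7.24 CPM) and Ifitm3 in macrophages (200.0 against 209 CPM) are level between the libraries.

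Isg15 encodes a ubiquitin-like protein that is secreted or joined to other proteins. In the wildtype library it was highest in macrophages at 62.6 CPM [53.4, 72.9], then endothelial/endocardial cells at 22.7, epicardial at 7.15, mesenchymal at 4.81, erythroid at 2.89 and cardiomyocytes at 0.995 CPM, each apart from the next beyond counting error. Hemoglobin took up 811458 CPM of wildtype and 463770 CPM of knockout erythroid cells, so the erythroid place is not read in either library. The knockout order was taken over other classes, since macrophages there and wildtype megakaryocytes numbered fewer than 50 cells. Among knockout classes of at least 50 cells, megakaryocytes led at 19.4 CPM [12.6, 28.4], with 26 UMIs in 20 of 92 cells. Endothelial/endocardial cells followed at 3.53 and erythroid cells at 1.39 CPM. Epicardial, mesenchymal and cardiomyocyte cells lay between 0.197 and 0.0831 CPM and did not differ beyond counting error. With erythroid cells set aside, the classes ranked in both libraries stood in the same sequence. The 41 knockout macrophages held 4 UMIs, or 4.47 CPM [1.22, 11.4]. The log2 ratio of Isg15 was -2.69 [-3.31, -2.12] in endothelial/endocardial, -5.18 [-6.57, -4.03] in epicardial, -4.81 [-10.1, -2.29] in mesenchymal and -3.81 [-5.70, -2.43] in macrophage cells. In erythroid cells it was -1.05 [-1.85, -0.23]; there 34 knockout UMIs lay in 26 of 1129 cells and 24 wildtype UMIs in 11 of 672 cells, 11 of them in a single cell, and the sign turned under 2 of the settings tried, to 0.19 and 1.13. Wildtype megakaryocytes numbered 24 and held no Isg15 UMI, which allows up to 27.9 CPM, so a difference was not detectable at this depth.

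Ifit1 and Ifit3 encode tetratricopeptide proteins that bind viral RNA or its partners. Both were close to absent from the knockout library, where Ifit1 had 12 UMIs and Ifit3 had 11 over all 5966 cells, against 78 and 68 over the 7440 wildtype cells. In wildtype macrophages Ifit1 stood at 5.69 and Ifit3 at 11.8 CPM, and 45.6% of all wildtype Ifit3 UMIs came from these 258 cells. In endothelial/endocardial cells Ifit1 had 0 UMIs in the knockout library and 25 in the wildtype library, at least 6.63-fold lower when the knockout level is set at 3 UMIs, and Ifit3 had 1 against 18 UMIs. Reads of Ifit3 may be shared with its near copy Ifit3b, since 14.9% of the 50-base words at the end of its transcript also occur there.

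Irf7 encodes a transcription factor that amplifies the production of type I interferon. It was the member most concentrated in macrophages. They held 65 of the 115 wildtype UMIs (56.5%) at 24.7 CPM [19.0, 31.4], against 1.90 CPM in endothelial/endocardial cells. In the knockout library macrophages held 6 of 24 UMIs at 6.70 CPM [2.46, 14.6], a log2 ratio of -1.88 [-3.38, -0.68]. In endothelial/endocardial cells the log2 ratio was -2.92 [-6.06, -0.87], from 2 against 19 UMIs. Irf7 overlaps Phrf1 on the opposite strand, and whether the counting used strand was not stated.

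Oasl2 belongs to the oligoadenylate synthetase-like proteins of the antiviral response. It stood at 3.35 against 42.1 CPM in macrophages (-3.65 [-5.95, -2.07]), at 1.13 against 7.91 CPM in endothelial/endocardial cells (-2.80 [-3.98, -1.81]) and at 0.310 against 3.79 CPM in epicardial cells (-3.61 [-4.78, -2.55]). Mesenchymal cells were the exception. There Oasl2 stood at 2.56 CPM from 15 knockout UMIs and 4.30 CPM from 67 wildtype UMIs, and the interval of the log2 ratio, -0.74 [-1.66, 0.08], held 0. Mesenchymal cells, with 2.56 CPM, and endothelial/endocardial cells, with 1.13 CPM, were the leading 2 knockout classes among those of at least 50 cells and did not differ beyond counting error.

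Rtp4 encodes an interferon-induced chaperone that helps some receptors reach the cell surface. Endothelial/endocardial cells carried 42.8% of its wildtype UMIs, at 25.7 CPM against 3.15 CPM in the knockout library (-3.03 [-3.69, -2.44]). In macrophages it stood at 14.5 against 59.6 CPM (-2.04 [-2.98, -1.22]) and in epicardial cells at 1.46 against 6.27 CPM (-2.10 [-2.71, -1.48]). In cardiomyocytes 3 knockout and 17 wildtype UMIs gave -2.63 [-5.04, -0.84]. The mesenchymal value, -1.07 [-2.80, 0.32], had an interval that held 0. Rtp4 overlaps Masp1 on the opposite strand and the transcript Gm45338 on its own strand.

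Ifi44 encodes an interferon-induced cytoplasmic protein. It differed from the other rare members in where it was found. Endothelial/endocardial cells led in the wildtype library at 5.71 CPM [4.32, 7.40], holding 57 of 100 UMIs, while macrophages held 3 UMIs, or 1.14 CPM [0.235, 3.33]. The endothelial/endocardial level in the knockout library was 0.504 CPM from 4 UMIs in 2 cells, a log2 ratio of -3.50 [-5.43, -2.07]. In epicardial cells there was 1 UMI in the knockout library and 8 in the wildtype library. Cardiomyocytes held none in either library, which allows up to 0.307 CPM in the knockout library and 0.334 CPM in the wildtype library.

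Bst2 encodes tetherin, a membrane protein that holds budding virus particles at the cell surface. It was highest in macrophages, at 154 CPM [129.5, 182] in the knockout library and 284 CPM [264, 304.6] in the wildtype library, and next in endothelial/endocardial cells, at 86.5 against 203 CPM. The log2 ratios were -0.88 [-1.15, -0.62] in macrophages, -1.23 [-1.36, -1.11] in endothelial/endocardial, -2.10 [-2.75, -1.51] in mesenchymal and -2.63 [-2.95, -2.31] in epicardial cells. In cardiomyocytes Bst2 stood at 7.06 CPM [5.64, 8.74] in the knockout library and 7.24 CPM [5.74, 9.01] in the wildtype library. The log2 ratio was -0.04 [-0.49, 0.42]. As this interval leaves out the spread between cells and hearts, it excludes no 2-fold difference between genotypes. Of the 80 wildtype UMIs 10 lay in a single cell. A Bst2 UMI was in 11.8% of knockout [9.39, 14.6] and 7.24% of wildtype [5.46, 9.39] cardiomyocytes. With cells thinned to equal depth the shares were 3.40% [2.12, 5.16] and 2.09% [1.17, 3.42], with intervals that overlapped. The erythroid log2 ratio was -0.34 [-1.15, 0.52].

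Ifitm3 encodes a membrane protein that blocks the fusion of viruses in endosomes, and in mouse it is also known from early embryonic and germ cells. In macrophages it was level at 200.0 CPM [172, 231.5] in the knockout library and 209 CPM [192, 227] in the wildtype library (-0.06 [-0.32, 0.18]), in the same cells where the log2 ratios of the other members ran from -0.76 [-3.19, 1.06] for Ifit1 to -3.81 [-5.70, -2.43] for Isg15. Apart from Bst2 these rest on 1 to 13 knockout UMIs each, and Ifi44 had 0 knockout and 3 wildtype UMIs. It was also high in knockout megakaryocytes at 64.0 CPM and did not differ there from endothelial/endocardial cells at 67.6 CPM. The log2 ratio of Ifitm3 was -1.25 [-1.40, -1.11] in endothelial/endocardial, -1.94 [-2.21, -1.68] in mesenchymal and -3.52 [-3.87, -3.17] in epicardial cells. The cardiomyocyte value, -1.85 [-2.54, -1.20], was less steady. Among 86 wildtype UMIs 19 lay in 1 cell, and the log2 ratio was -0.63 [-1.62, 0.34] once barcodes with the highest doublet scores were left out. Of the 50-base words at the end of its transcript, 14.0% also occur in Ifitm1, Ifitm2 or unnamed gene models.

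In endothelial/endocardial cells 8 of 8 members with at least 20 UMIs over both libraries were at least 2-fold lower in the knockout library, beside 8.16% of 13388 genes; 2.16% of genes were at least 2-fold higher and no member was. The median log2 ratio of these 8 was -2.77 with Ifit1 set at its bound, and that of all genes was -0.08. Rare members passed this minimum largely through wildtype UMIs, as did Ifit1 (0 knockout and 25 wildtype UMIs), Irf7 (2 and 19) and Ifi44 (4 and 57). A member that enters this way can hardly be other than lower. The members were also chosen with earlier results of these data known, so the counts in each class describe them and are no test. In epicardial cells 5 of 5 members were at least 2-fold lower, beside 11.3% of genes (6.77% higher). In mesenchymal cells 4 of 5 were, beside 12.4% of genes (3.07% higher), although 3 of the 5 had intervals below 0. In macrophages 5 of 7 were, beside 11% of genes (5.96% higher), with Bst2 and Ifitm3 inside the limit. In cardiomyocytes 2 of 3 were, beside 5.40% of genes (4.33% higher).

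In erythroid cells 2 of 3 members, Isg15 and Ifitm3, were at least 2-fold lower, beside 4.53% of genes, while 70.7% of genes were at least 2-fold higher in the knockout library. Hemoglobin RNA stood at 463770 CPM in knockout erythroid cells and 811458 CPM in wildtype ones, which shifts the share left for all other genes, and the median gene had a log2 ratio of 1.76. Relative to that median gene all 3 members were at least 2-fold lower, beside 24.3% of genes (22.2% higher). No member with at least 20 UMIs was at least 2-fold higher in the knockout library in any of the 6 classes, on either scale. The limit given above for rare members applies to this count too.

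**Figure D2:**
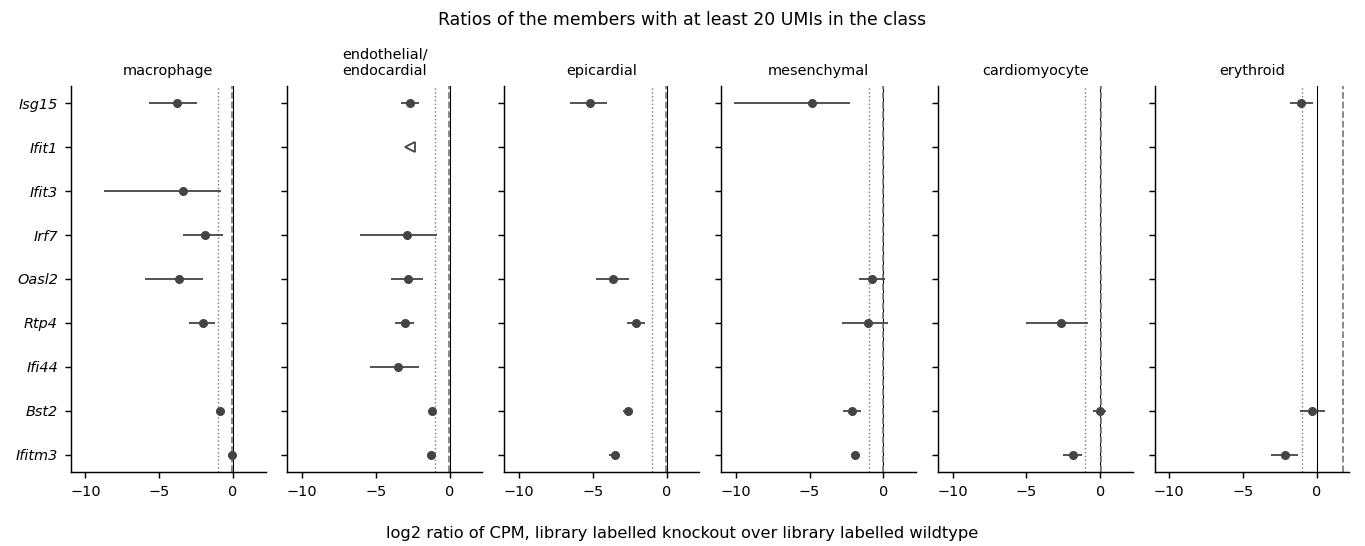
Log2 ratio of CPM, knockout library over wildtype library, for the members with at least 20 UMIs in each class; bars are 95% intervals for counting error (an open triangle marks Ifit1, at 0 UMIs in the knockout library and drawn at its bound), the dashed line is the median gene of the class and the dotted line marks 2-fold lower. All 31 values lie below 0, and Bst2 in cardiomyocytes (-0.04) and Ifitm3 in macrophages (-0.06) lie closest to it. Rare members reach 20 UMIs largely through the wildtype library.

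Macrophages, mesenchymal, endothelial/endocardial and epicardial cells also differed between the libraries in genes outside the pathway, so their ratios compare populations that are not alike. Ccr2, a chemokine receptor of monocytes, stood at 8.94 CPM in knockout macrophages and 58.8 CPM in wildtype ones. Mrc1, a marker of tissue macrophages, was at 392.1 against 1604 CPM and Lyve1 at 38.0 against 293 CPM. Lyz2, a lysozyme gene of myeloid cells, was at 352 against 707 CPM, whereas Plac8 was higher in knockout macrophages, at 157.5 against 102 CPM. Mesenchymal cells differed as well. The matrix genes Col1a1, Lum and Dcn stood at 229.9 against 1306, 20.9 against 285 and 49.1 against 632 CPM, while Twist1, an early mesenchymal factor, stood at 596 against 199.8 CPM. In endothelial/endocardial cells the marker Cldn5 stood at 18.0 against 77.1 CPM and Hmga2 at 235 against 116 CPM, while Emcn was closer at 659 against 718 CPM. In epicardial cells the markers Krt19 and Aldh1a1 stood at 149 against 333 and 103 against 29.8 CPM. Hmga2 stood there at 704 against 157 CPM, while Wt1 was closer at 353 against 340 CPM. The part of these differences in the member ratios was not tested. Macrophage marker RNA was also found in other classes. In endothelial/endocardial cells the 8 macrophage gate markers together came to 42.6 CPM in the knockout library, with 2 of them at 0, and 57.3 CPM in the wildtype library, with none at 0. In epicardial cells they came to 13.5 against 56.9 CPM and in mesenchymal cells to 8.72 against 22.6 CPM. A UMI of these markers was in 37.4% of knockout and 33.2% of wildtype endothelial/endocardial cells. The epicardial shares were 19.0% and 37.3%, and the mesenchymal shares 9.25% and 13.0%. When cells with any UMI of these markers were left out, the members' values in endothelial/endocardial cells kept their direction: the summed 7 rare members had a log2 ratio of -2.76, Bst2 -1.17 and Ifitm3 -1.18. Over 9 alternative settings, this one among them, the summed 7 ran from -3.72 to -2.85 in epicardial and from -2.29 to -1.20 in mesenchymal cells. The part of macrophage RNA in these ratios was not tested.

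The profile of near-empty barcodes held only 3 knockout and 4 wildtype UMIs of the 7 rare members, so the estimate for them is rough. By that profile, free RNA would bring 0.328 of their 69 UMIs in knockout endothelial/endocardial cells and 2.72 of the 682 in wildtype ones. For Ifitm3 in cardiomyocytes the part was larger, with 3.52 of 26 knockout UMIs and 12 of 86 wildtype UMIs. With every cell thinned to 3000 UMIs, any of the 9 members was found in 1.51% of knockout [0.880, 2.40] and 4.02% of wildtype [2.66, 5.79] erythroid cells. The cardiomyocyte shares were 4.54% [3.04, 6.49] in the knockout library and 4.60% [3.19, 6.39] in the wildtype library. Hemoglobin fills most of an erythroid cell's UMIs, so erythroid cells thinned to this depth are no matched background. In CPM, wildtype cardiomyocytes stood above wildtype erythroid cells for Bst2 (7.24 against 2.29) and Ifitm3 (7.78 against 3.50) beyond counting error. Hemoglobin stood at 811458 CPM in wildtype erythroid cells and 56201 CPM in wildtype cardiomyocytes. The classes are therefore not on a like scale in CPM, and no order is read from these values. Free RNA would bring 17.3 of the 208 member UMIs of wildtype cardiomyocytes. Before thinning, the median depths were 18147 and 13461.5 UMIs in cardiomyocytes and 20604 and 12011.5 UMIs in erythroid cells of the knockout and wildtype libraries.

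Cells with UMIs of several members were found mostly in the wildtype library. Higher levels of single members raise such shares as well. Bst2 alone was in 43.0% of wildtype endothelial/endocardial cells at 3000 UMIs per cell. At 3000 UMIs per cell, UMIs of at least 2 of the 9 members were found in 68 of 5966 knockout cells, or 1.14% [0.886, 1.44], and in 557 of 7440 wildtype cells, or 7.49% [6.90, 8.11]. At least 3 were found in 0.0838% [0.0272, 0.195] of knockout and 2.0% [1.70, 2.35] of wildtype cells. Without thinning, the shares with at least 2 were 7.19% of knockout and 17.5% of wildtype cells. For the 7 rare members alone, at least 2 were found in 3 knockout cells (0.0503%) and 88 wildtype cells (1.18%) after thinning. The most members seen in any one unthinned cell was 7 in the knockout library, a macrophage, and 9 in the wildtype library, an endothelial/endocardial cell.

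By class, at least 2 of the 9 members were found in 6.42% of knockout [4.48, 8.85] and 25.9% of wildtype [23.2, 28.6] endothelial/endocardial cells at 3000 UMIs. In macrophages the shares were 19.5% of knockout [8.82, 34.9] and 37.6% of wildtype [31.7, 43.8] cells, and these intervals overlapped. Without thinning, the macrophage order turned round, with 82.9% of knockout and 63.2% of wildtype cells at median depths of 20980 and 9085 UMIs, so no order is read from it. In mesenchymal cells they were 0 of 411 knockout cells, which allows up to 0.894%, and 2.91% of wildtype cells [2.13, 3.89]. In epicardial cells they were 0.0543% of knockout [0.00137, 0.302] and 2.27% of wildtype [1.28, 3.72] cells. Cardiomyocytes, with 0.162% of knockout and 0.696% of wildtype cells, and erythroid cells, with 0 of 1129 knockout and 0.298% of wildtype cells, held few such cells in either library and their intervals overlapped.

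**Figure D3:**
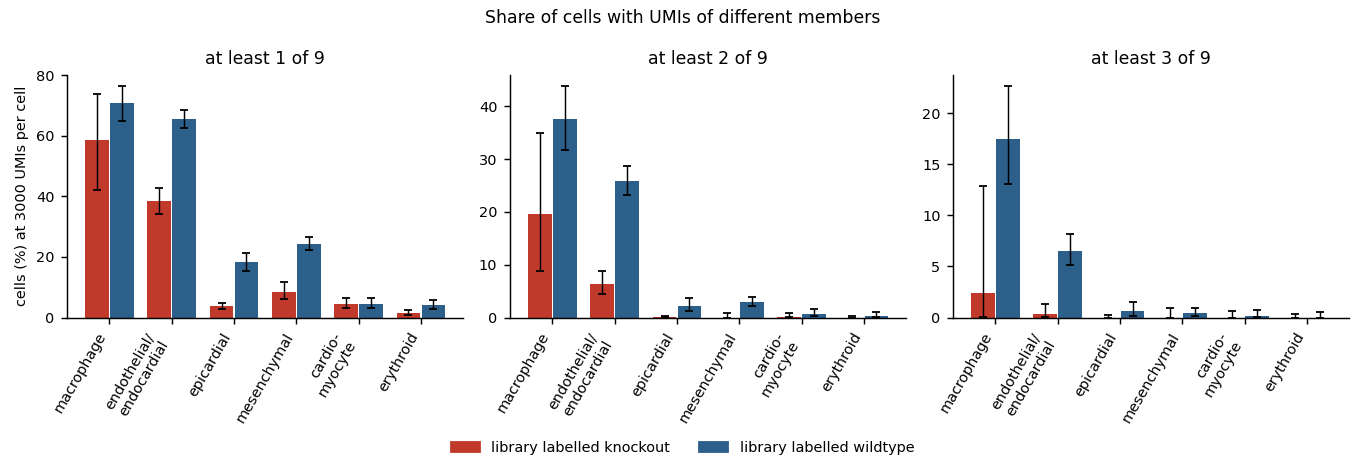
Percent of cells with UMIs of at least 1, 2 or 3 different members after each cell was thinned to 3000 UMIs, by class, with the library labelled knockout left of the library labelled wildtype; bars with 95% Clopper-Pearson intervals for counting error, on a separate linear axis from 0 in each panel. Wildtype endothelial/endocardial cells with at least 2 members (25.9%) outnumber knockout ones (6.42%), while cardiomyocytes with at least 1 are level (4.54% against 4.60%).

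Within the wildtype library, cells with Isg15 held some other rare members more often. Of 141 wildtype endothelial/endocardial cells with an Isg15 UMI, 39.0% also had Rtp4 [30.9, 47.6], against 14.0% of 903 cells without Isg15 [11.8, 16.4]. After thinning the shares were 23.1% [14.3, 34.0] and 7.04% [5.51, 8.84]. Oasl2 was found in 23.4% of the cells with Isg15 [16.7, 31.3] and 2.77% of those without [1.80, 4.06]. In wildtype macrophages Irf7 was found in 49.2% of 59 cells with Isg15 [35.9, 62.5] and 7.04% of 199 cells without [3.9, 11.5]. After thinning these were 22.2% [8.62, 42.3] and 6.49% [3.68, 10.48], with intervals that overlapped. Some other pairs were not apart after thinning. In wildtype endothelial/endocardial cells the intervals also overlapped for Ifit3 with Isg15, at 2.56% [0.312, 8.96] against 0.518% [0.168, 1.20], and for Rtp4 with Oasl2, at 22.7% [7.82, 45.4] against 7.93% [6.34, 9.75], and Irf7 was in 0 of 22 cells with Oasl2. Cells with Isg15 were somewhat deeper, with medians of 9064 against 8259 UMIs in endothelial/endocardial cells and 10315 against 8546 UMIs in macrophages. In knockout endothelial/endocardial cells 2 of 23 cells with Isg15 held Rtp4, or 8.70% [1.07, 28.0], against 4.14% of 507 without [2.58, 6.26], so no difference was detectable at this depth.

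The wildtype cells with at least 2 of the 7 rare members were then set beside those with none, and only other genes were read; those named were chosen after their values were seen. In macrophages 71 such cells (median 10065 UMIs) and 119 with none (7913 UMIs) were compared, and 32 of 40 other interferon-stimulated genes with at least 20 UMIs were at least 2-fold higher in the carriers, beside 3.06% of all genes. Slfn5 stood at 122 against 9.84 CPM, Sp100 at 121 against 17.9, Ifi203 at 123 against 27.7 and Xaf1 at 77.2 against 13.4 CPM. Rsad2, which encodes the antiviral enzyme viperin, had 31 UMIs in carriers and 1 in the others, and the chemokine gene Cxcl10 had 24 and 0. The carriers were also higher in Ccr2, at 132 against 17.0 CPM, and in Plac8, at 243 against 8.94 CPM, while the neutrophil genes S100a8 and S100a9 had 0 UMIs in carriers and 135 and 207 in the others. The part of these cell differences in the counts was not tested.

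In wildtype endothelial/endocardial cells 103 carriers (median 9479 UMIs) and 731 cells with none (8225 UMIs) were compared. Of 28 other interferon-stimulated genes, 15 were at least 2-fold higher in carriers and 1, Ifi27l2a, was lower, beside 2% of all genes that were higher. Rnf213 stood at 86.0 against 21.5 CPM, Xaf1 at 50.2 against 13.2 and Gbp7 at 28.9 against 7.98 CPM. Of the signalling genes, Irf9 stood at 27.2 against 9.57 CPM. Usp18, which dampens interferon signalling, had 19 UMIs in carriers and 11 in the others, or 16.2 against 1.60 CPM. Fbln5, an elastic fibre gene, stood at 1.70 CPM in carriers and 81.2 in the others, and Stmn2 had 4 UMIs in carriers and 400 in the others. Kcne3, Gkn3 and Ccl21a had 0 UMIs in carriers and 308, 134 and 129 in the others. The carriers and the others thus differed in genes outside the pathway, and the part of this in the counts was not tested. A macrophage marker UMI was found in 31.1% of the carriers and 20.9% of the others, but only 1 cell of each held 5 or more such UMIs.

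The rest of the pathway was read by role. Of 21 interferon ligand genes only Ifnk (6 knockout and 3 wildtype UMIs), Ifnz (1 and 1) and Ifng (1 and 0) were seen at all, so a source of interferon was not detectable at this depth. The receptors were present in both libraries. Over all cells Ifnar2 stood at 42.5 against 58.6 CPM, Ifngr2 at 28.4 against 40.5 and Ifnar1 at 18.8 against 23.6 CPM. Of 5 receptor genes with enough UMIs, 1 was at least 2-fold lower in each of endothelial/endocardial cells, epicardial cells and macrophages, and 0 were in mesenchymal cells and cardiomyocytes. Of all genes 8.16% were lower in endothelial/endocardial, 11.3% in epicardial, 12.4% in mesenchymal, 5.40% in cardiomyocyte and 11% in macrophage cells, and 1 gene in a list this short is near those shares. The signalling genes were measured in every class. Over all cells Jak1 stood at 81.9 against 85.1 CPM and Jak2 at 24.6 against 21.2 CPM. Of 7 signalling genes, 2 were at least 2-fold lower in endothelial/endocardial cells (median of the 7 -0.86), 2 in macrophages (-0.71) and 1 in epicardial cells (-0.23). Irf9 was among those in endothelial/endocardial and epicardial cells, at -1.22 [-1.70, -0.75] and -1.48 [-1.95, -0.99].

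Sensors of foreign nucleic acid were mixed. Over all cells Tbk1 stood at 26.1 against 26.9 CPM, Irf3 at 18.9 against 17.0 and Aim2 at 13.9 against 22.2 CPM. Ifih1 and Ddx58 encode RNA helicases that sense viral RNA. Ifih1 had a log2 ratio of -3.67 [-9.02, -1.10] in mesenchymal cells and of 2.14 [0.72, 3.89] in cardiomyocytes, from 24 knockout and 5 wildtype UMIs, whereas Ddx58 was at -1.96 [-2.93, -1.08] in cardiomyocytes. Of 10 sensors, 4 were at least 2-fold lower in endothelial/endocardial, 3 in mesenchymal and 4 in epicardial cells, and none was higher there; in macrophages 5 of 11 were lower and in cardiomyocytes 1 of 7 was lower and 1 higher. Genes that restrain the response stood, over all cells, at 31.4 against 22.5 CPM for Samhd1, 8.42 against 12.2 for Adar and 3.48 against 5.97 CPM for Socs1. At least 2-fold lower were 1 of 6 restraint genes in endothelial/endocardial cells, 1 of 5 in each of mesenchymal and epicardial cells, 0 of 3 in cardiomyocytes and 3 of 5 in macrophages (median -1.32). Over all genes with enough UMIs, 8.16% were at least 2-fold lower in endothelial/endocardial, 12.4% in mesenchymal and 11.3% in epicardial cells. The shares were 5.40% in cardiomyocytes and 11% in macrophages. In lists this short, 1 gene is near those shares.

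Of 53 other interferon-stimulated genes in the files, 32 had at least 20 UMIs in endothelial/endocardial cells. Of these, 21 were at least 2-fold lower in the knockout library and 0 higher (median -1.72), beside 8.16% of all genes lower and 2.16% higher. There Iigp1 had 0 knockout and 28 wildtype UMIs, Rsad2 had 3 and 113, Gbp2 had 1 and 35, and Slfn5 had 32 and 404. In epicardial cells 13 of 26 were lower and 0 higher (median -1.02), beside 11.3% of all genes lower and 6.77% higher. Ifi27 there stood at 4.11 against 59.1 CPM, Ifi27l2a at 2.87 against 38.5, Samd9l at 0.225 against 3.94 and Phf11d at 0.282 against 4.09 CPM. In mesenchymal cells 12 of 27 were lower and 0 higher (median -0.73), beside 12.4% of all genes lower and 3.07% higher. Ifi27l2a had 0 and 80 UMIs there, Phf11d 0 and 28, and Gbp7 1 and 33. In macrophages 25 of 42 were lower and 0 higher (median -1.17), beside 11% of all genes lower and 5.96% higher. Among the 25 were Ifi27l2a at 8.94 against 234 CPM, and Rsad2, Ifi209 and Cxcl10. These last had 0 UMIs in the knockout library and 35, 44 and 25 UMIs in the wildtype library. In cardiomyocytes 3 of 20 were lower and 0 higher (median -0.47), beside 5.40% of all genes lower and 4.33% higher. The 3 were Iigp1 at 0.748 against 5.16 CPM, Ifi27 at 0.914 against 3.53 and Ifit2 at 3.49 against 8.33 CPM. The minimum of 20 UMIs lets rare genes in through the library where they are high, here as for the members.

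In erythroid cells, where the median gene stood at 1.76, 9 of 13 other stimulated genes were at least 2-fold higher and 2 were lower, beside 70.7% of all genes higher and 4.53% lower. Relative to the median gene 1 was higher and 4 were lower, beside 22.2% and 24.3% of all genes. Psmb10, an immunoproteasome gene, was at 18.6 against 1.08 CPM, and of the other lists Irf3 was at 9.27 against 0.964, Samhd1 at 15.8 against 1.93 and Mavs at 4.84 against 0.723 CPM. Rsad2 ran the other way with 1 knockout and 70 wildtype UMIs, as did Ifi27 at 0.287 against 3.01 CPM and Ifitm10 at 0.533 against 3.25 CPM. Of the 3 most abundant genes of the stimulated list, Ly6e and Rnf213 were higher in the knockout library over all cells, at 95.3 against 67.5 CPM and 81.9 against 31.3 CPM, and Eif2ak2 was lower, at 21.3 against 31.6 CPM. Epicardial cells made up 30.9% of knockout and 8.87% of wildtype cells and carried most of the Rnf213 UMIs of the knockout library, with 6863 of 9073.

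The family of Ifitm3 was read gene by gene. Ifitm2, a neighbour with a similar role, stood at 592 against 724 CPM in endothelial/endocardial cells (-0.29 [-0.34, -0.24]) and at 313 against 440 CPM in mesenchymal cells (-0.49 [-0.57, -0.42]). Ifitm1 was higher in knockout endothelial/endocardial cells, at 3.15 against 1.40 CPM (1.17 [0.17, 2.22]), and lower in knockout epicardial cells, at 0.929 against 6.42 CPM (-2.79 [-3.49, -2.10]). Over all cells Ifitm1 was at 6.97 against 11.05 CPM and Ifitm10 at 3.37 against 5.92 CPM.

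**Figure D4:**
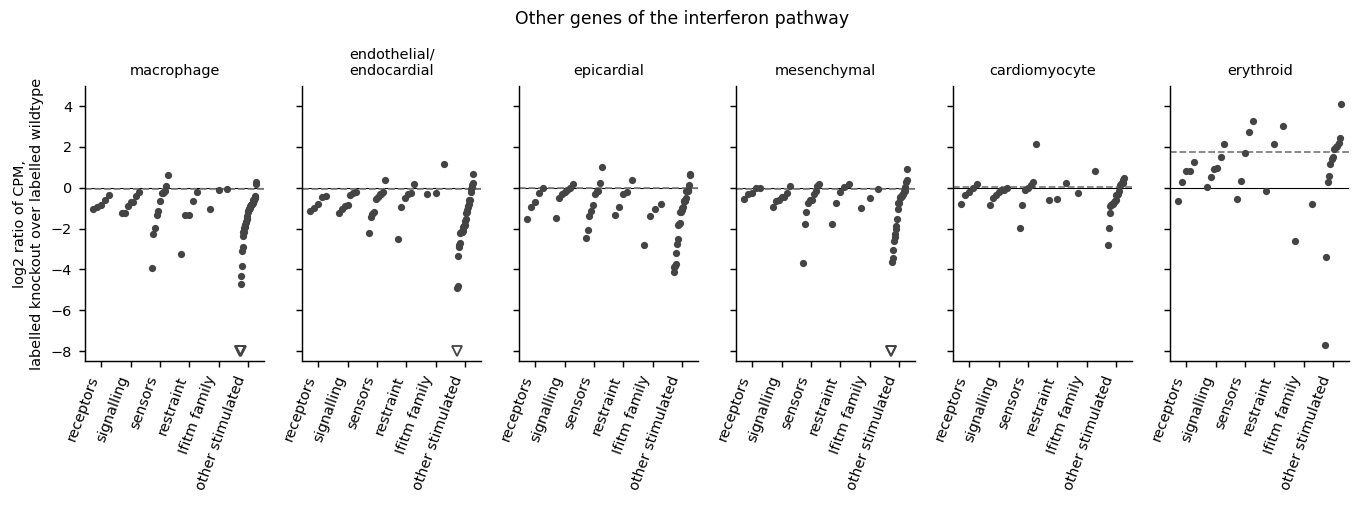
Log2 ratio of CPM, knockout library over wildtype library, of the other interferon pathway genes with at least 20 UMIs in each class, by list; 1 point per gene, sorted within a list, with open triangles for genes at 0 UMIs in the knockout library (no finite value, drawn at the lower edge) and a dashed line at the median gene. Of the other stimulated genes 21 of 32 are at least 2-fold lower in endothelial/endocardial cells, beside 8.16% of all genes. Signalling genes there have a median of -0.86 and receptor genes one of -0.79.

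Over 13 groups of class and library with at least 50 cells, the genes whose log2(CPM + 10) ran most like the summed 7 rare members were Xaf1 (Pearson r = 0.952), Lgals8 (0.945), Gbp7 (0.944), Irf9 (0.943) and Trim5 (0.940). For Bst2 they were Lgals8 (0.958), Adam15 (0.952), Arhgap27 (0.949), Xaf1 (0.948) and Elmo1 (0.944). For Ifitm3 they were Crlf2 (0.95), Ezh1 (0.938), the gene model Gm48678 (0.937), Adam10 (0.933) and Cd38 (0.926). These points share 2 libraries and their depths, and wildtype macrophages and endothelial/endocardial cells hold the highest values of the members.

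By genome build mm10 and the GENCODE annotation, Isg15 (ENSMUSG00000035692) lies at chr4:156199424-156200818 on the minus strand and Bst2 (ENSMUSG00000046718) at chr8:71534255-71537456 on the minus strand. Ifitm3 (ENSMUSG00000025492), at chr7:141009586-141010770, and Irf7 (ENSMUSG00000025498), at chr7:141262706-141266481, lie close together on chromosome 7. Ifit3 (ENSMUSG00000074896), at chr19:34583531-34588731, and Ifit1 (ENSMUSG00000034459), at chr19:34640871-34650009, are neighbours on chromosome 19. Oasl2 (ENSMUSG00000029561) is at chr5:114896936-114912234, Rtp4 (ENSMUSG00000033355) at chr16:23520291-23614222 and Ifi44 (ENSMUSG00000028037) at chr3:151730922-151749960.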

How the data were processed

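The deposited matrices hold raw UMI counts for every barcode, which are not normalised. Per the submitters' processing notes and the file headers, the authors used Cell Ranger 7.1.0 and mm10. The files held 130039314 UMIs (knockout library) and 122834180 UMIs (wildtype library). The 500-gene minimum removed 15 knockout and 3642 wildtype barcodes, and the mitochondrial limit removed 79 and 41.

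From these counts, UMIs were summed by class and library with Python 3.11.15, numpy 2.4.6 and scipy 1.17.1. A marker counted when its UMIs exceeded what 10% free RNA (barcodes of 10 to 100 UMIs) would bring, at a Poisson tail of 0.01; the gate rule was set after seeing the data. Classes with at least 50 cells in both libraries were compared, and macrophages were added after seeing the data. Levels have exact Poisson, ratios exact conditional binomial and shares Clopper-Pearson intervals. No doublet caller was used in the values given. The code was tested on simulated data. Named were all members, per class up to 4 pathway genes past 2-fold in each direction, and the 3 most abundant per list; 1 gene under this rule is not reported here. Members and lists were chosen with earlier results of these data known.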

Additional observations from a re-analysis of the deposited data

How the results depend on the processing

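Of 31 log2 ratios by class that were at least 2-fold lower, 252 values under the alternative settings could be computed, of which 250 lay below 0 and 243 were still at least 2-fold lower. The cells without a macrophage marker UMI, and those with a Xist UMI and no Y-linked UMI, were alternatives chosen after seeing the data. The exceptions in sign were both Isg15 in erythroid cells, at 0.19 with a stricter gate and 1.13 in the cells with Xist and no Y-linked UMI. Ifitm3 in cardiomyocytes was at -0.63 without the highest Scrublet scores, -0.48 with cells thinned to 3000 UMIs and -0.86 in the cells with Xist; the cause was not tested. Thinning also gave -0.97 for Ifitm3 in endothelial/endocardial cells, -1.44 for Bst2 and -2.29 for the summed 7 rare members in mesenchymal cells, and -2.30 for Bst2 and -2.93 for Ifitm3 in epicardial cells. The cells with Xist gave -1.42 for both Bst2 and Ifitm3 in endothelial/endocardial cells, -3.04 for Bst2 and -3.72 for the 7 members in epicardial cells, and -1.33 for Bst2 in erythroid cells. Relative to the median gene, erythroid Bst2 was at -2.11, Ifitm3 at -3.93 and the 7 members at -3.42, and erythroid Ifitm3 was at -3.33 without the highest Scrublet scores.

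The number of members at least 2-fold lower depends on how many have enough UMIs to be counted. In cardiomyocytes it was 1 (10% mitochondrial limit, stricter gate, free RNA subtracted, minimum of 100 UMIs, no macrophage marker) or 0 (Scrublet, thinned, Xist). Thinned cells gave 4 in endothelial/endocardial, 3 in epicardial and 0 in erythroid cells, and a minimum of 100 UMIs gave 4 in endothelial/endocardial cells, 2 each in mesenchymal and epicardial cells, and 0 in erythroid cells. The erythroid number was 1 without the highest Scrublet scores and 1 with the stricter gate. The share of cells with at least 2 members was 7.19% in the knockout library and 17.5% in the wildtype library without thinning, and 0.0503% and 1.18% for the 7 members. In the wildtype library it was 8.84% in cells with a class and 10.2% in the cells with Xist.

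Ifit1 in endothelial/endocardial cells had 0 knockout UMIs in each of 7 settings that could be read. Under thinning Isg15 in mesenchymal cells and macrophages and Irf7 in macrophages had 0 knockout UMIs, as did mesenchymal Isg15 with the stricter gate, so no ratio was given. Scrublet scores led to 285 knockout and 443 wildtype barcodes being left out; its own threshold marked 263 knockout and 1 wildtype barcode and so had not worked. No paired analysis was possible because each genotype has 1 library. Depth limits the rare members most, since 7 of them gave 377 UMIs over all knockout cells.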
